A study of Caenorhabditis elegans with 4 samples.

Results

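The left arm of chromosome II of *Caenorhabditis elegans* carries 1194 of the 14075 sites at which the chromatin protein CEC-3 was mapped in adult worms. The sites are peaks of chromatin immunoprecipitation followed by sequencing (ChIP-seq). They were chosen by position alone: every peak of the list for the whole series whose midpoint lies at or below base 5093067 of II, on the build WormBase WS220. This is the leftmost of 3 equal parts of the 15279201 bases between the start of II and the last base of its peaks. In the same stretch the separate lists of the ChIP replicates hold 271 of 3666 peaks for replicate 1 and 283 of 3867 for replicate 2. The series holds 2 ChIP samples, made with an affinity-purified polyclonal rabbit antibody raised against T09A5.8, and 2 samples of input DNA. All 4 came from hermaphrodites of the strain *fem-2(b245)*, genotype *fem-2(b245)III*, grown at 20 °C, and no wild-type strain stands beside them. The stage is labelled as young adults that contain a germline, while the growth protocol speaks of gravid adults. Frozen worms were ground and then fixed in 1% formaldehyde for 10 min. Whole animals were used, so the values average over all tissues. Whether the replicates are separate cultures is not labelled, and their spread may therefore be technical.

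T09A5.8 is the gene *cec-3* in the gene table of the assembly WBcel235. It encodes a chromodomain protein, and a chromodomain is a fold that binds methylated lysines of histone tails. CEC-3 binds histone H3 methylated at lysine 9, the mark of heterochromatin. In *C. elegans* this mark lies mainly on the chromosome arms, which are rich in repeats and transposon remnants and tend to lie at the nuclear periphery, while the centres hold more of the housekeeping genes. *fem-2* encodes a phosphatase of the sex determination pathway that is needed for male development and for sperm, and b245 is a temperature-sensitive allele.

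Each peak has a start, an end and a score given by the authors' peak caller. The scale of the score is not given in the sources used here. The whole-series scores are on another scale than the replicate scores, so the 2 kinds were never set against each other. Depth is unknown because no list holds read counts, and the input samples have no list of peaks used here, so no value of the background in input stands beside the peaks. The genes and repeats under the peaks are not analysed here.

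CEC-3 peaks were not spread evenly over the arm but gathered between 1 and 2.5 Mb from its left end. The arm was divided into 21 bins of 250 kb, the last one shorter, and the share of bases lying under a peak was taken in each. In 6 bins, those from 1 to 2.5 Mb, this covered share was over 30% as the mean of the replicates. The bin from 1.5 to 1.75 Mb was the most covered, with replicate 1 at 45.8% of bases, replicate 2 at 49.9% and the whole-series list at 50.6%. The next bin, from 1.75 to 2 Mb, followed with 41.8%, 52.3% and 50.1% in the same order. The 2 bins lay within the replicates' spread of each other. Dense bins were not particular to this arm, since 10 of 19 bins were over 30% on the left arm of III. On the left arm of IV it was 10 of 24, and there too the most covered bin ran from 1.5 to 1.75 Mb, at 46.6 ± 0.12% (SD, n = 2).

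On both sides the covered share dropped within a single bin or a few. Between 0.75 and 1 Mb replicate 1 had 4.32%, replicate 2 had 1.82% and the whole-series list had 5.10%, and in the neighbouring bin from 1 to 1.25 Mb it was 37.9%, 36.9% and 33.0%. This edge stood in all 3 lists. Toward the centre of the chromosome the decline took several steps in bins of 250 kb. It was not steady in bins of 100 kb. The means there were 39.9% from 2.5 to 2.6 Mb, 1.20% from 2.6 to 2.7 Mb and 19.6% from 2.7 to 2.8 Mb. In bins of 250 kb the covered share was 20.0 ± 0.60% from 2.5 to 2.75 Mb, 9.80 ± 0.67% from 3 to 3.25 Mb and 5.98 ± 0.36% from 3.75 to 4 Mb (mean ± SD, n = 2 throughout). From 4.75 to 5 Mb it was 1.11% in each replicate. In all, 11 of the 21 bins were under 10% covered and 3 were under 5%.

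**Figure D1:**
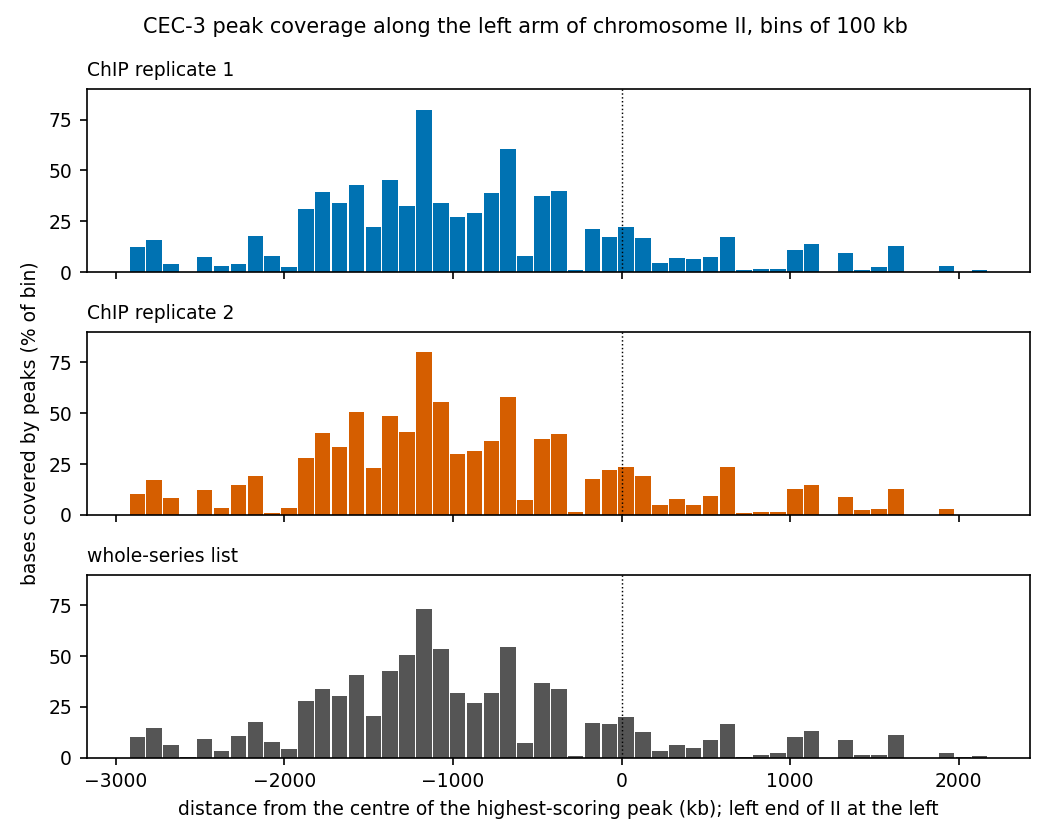
Share of bases under CEC-3 peaks in bins of 100 kb along the left arm of II (percent of the bin), 1 panel for each list. The horizontal axis gives the distance in kb from the centre of the highest-scoring peak of the arm. In each panel the tallest bin is that from 1.7 to 1.8 Mb, at 79.9% for replicate 1, 80.3% for replicate 2 and 73.0% for the whole-series list.

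Finer bins showed the dense stretch to be uneven. Of 51 bins of 100 kb, 12 were over 30% covered in the mean of the replicates. The bin from 1.7 to 1.8 Mb stood highest, at 80.1 ± 0.25% (SD, n = 2), and that from 2.2 to 2.3 Mb was next, at 59.4 ± 1.78%. Between 2.3 and 2.4 Mb the covered share was 7.62 ± 0.093%, so a sparse bin lay between dense ones. Just beyond 2.5 Mb the covered share was still high, at 39.9 ± 0.082% between 2.5 and 2.6 Mb. It was 1.20 ± 0.28% between 2.6 and 2.7 Mb, so in these bins the drop fell at 2.6 Mb. In 5 bins neither replicate had any covered base. Over the 51 bins Spearman's rho between the replicates' covered shares was 0.970, a description over bins that share the same 2 libraries.

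Divided at its midpoint, a limit set without regard to how peaks lie within it, the arm held more peaks on the side of the chromosome end than on the side of the centre. The outer side had 75.0 peaks per Mb in replicate 1 and 77.0 in replicate 2, and the inner side had 31.4 and 34.2. The covered share was 25.8% and 27.8% on the outer side, and 7.90% and 8.57% on the inner side. The sides did not overlap in either measure. The log2 ratio of outer over inner was 1.21 ± 0.059 for peaks per Mb and 1.70 ± 0.005 for covered bases (SD, n = 2). A two-sided exact sign-flip test over the 2 replicates gave p = 0.5 for both, the smallest that 2 replicates allow. In the whole-series list the log2 ratios were 1.60 and 1.90. The left arms of III and IV, divided likewise, were also denser on the outer side in the replicates. Their log2 ratios for peaks per Mb were 0.55 ± 0.046 on III and 1.56 ± 0.063 on IV. For covered bases they were 1.03 ± 0.036 and 1.54 ± 0.015 (SD, n = 2).

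The stretch from 1 to 2.5 Mb, with limits set after the bins were seen and therefore not tested, makes up 29.5% of the arm. Its inner limit follows the bins of 250 kb and leaves out the bases from 2.5 to 2.6 Mb, which were 39.9% covered. The stretch held 65.3 ± 0.41% of the covered bases and 56.9 ± 0.98% of the peaks of the replicates (SD, n = 2). Its density was 105 ± 1.41 peaks per Mb, with 38.8 ± 1.90% of bases covered. The outermost 1 Mb had 32.0 ± 2.83 peaks per Mb and 8.24 ± 0.96% covered, and the stretch from 2.5 Mb to the arm's limit had 33.7 ± 1.36 and 8.78 ± 0.43% (SD, n = 2 for each). The outermost 1 Mb thus lay within the replicates' spread of the innermost part. Whole-series peaks had almost the same median width in the 3 stretches. It was 339.5 bp from 1 to 2.5 Mb, 338.5 bp in the outermost 1 Mb and 346.5 bp in the innermost part. Their median scores were 5.69, 6.36 and 5.64 in the same order. Replicate peaks were widest from 1 to 2.5 Mb, with medians of 2167.5 bp in replicate 1 and 2054 bp in replicate 2. The medians were 1271 and 1903.5 bp in the outermost 1 Mb and 1703 and 1725.5 bp in the innermost part.

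The left arm of II held 7.39% of the peaks of replicate 1, 7.32% of those of replicate 2 and 8.48% of those of the whole-series list, on 5.08% of the length of the 6 chromosomes. The 95% Wilson intervals were 6.59 to 8.28%, 6.54 to 8.18% and 8.03 to 8.95%, and they cover counting error only. Of all covered bases the arm held 6.92%, 7.33% and 6.58% in the same order. It was denser than the other end of its own chromosome, with 53.2 and 55.6 peaks per Mb in the replicates against 36.9 and 39.7 in the right arm of II. The log2 ratio of left over right was 0.51 ± 0.029 for peaks and 0.73 ± 0.05 for covered bases (SD, n = 2). It was less dense than the left arm of III, which had 84.9 and 84.2 peaks per Mb, and than the left arm of IV, which had 67.9 and 70.8. The log2 ratios of II over III were -0.64 ± 0.052 for peaks and -0.98 ± 0.11 for covered bases, and those of II over IV were -0.35 ± 0.0013 and -0.36 ± 0.052 (SD, n = 2). Every one of these differences exceeded the spread of the replicates, and the exact sign-flip test gave p = 0.5 for each, the smallest possible. The whole-series list held nearly as many peaks per Mb in the left arm of II, 234, as in that of IV, 235, so the difference in peak number from IV was seen in the replicate lists alone. The covered share still differed in that list, 16.6% on II against 20.7% on IV.

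**Figure D2:**
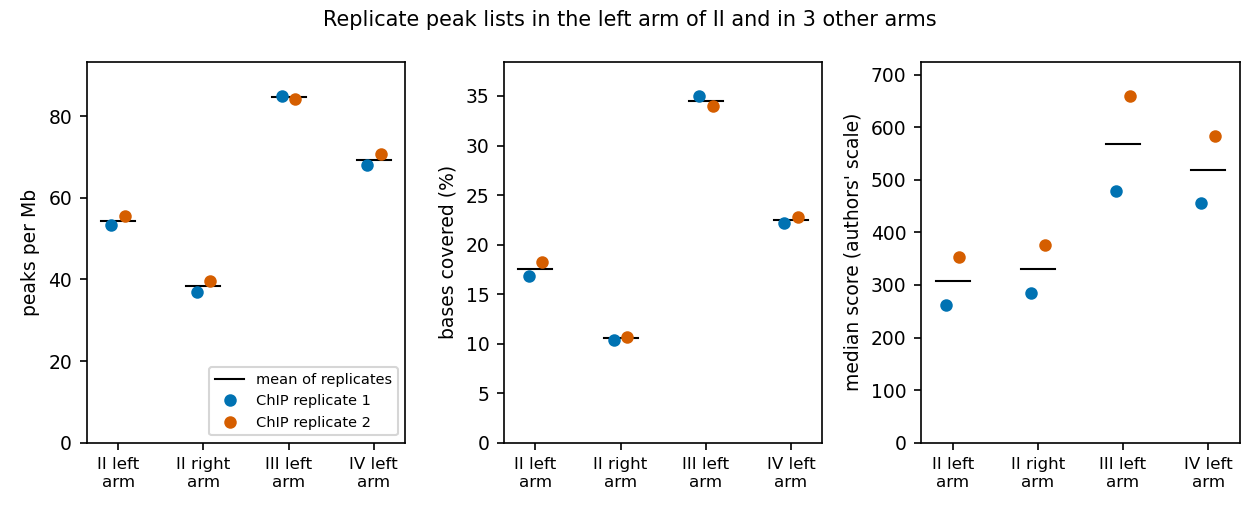
Peaks per Mb, percent of bases covered and median peak score in the replicate lists, for the left arm of II and 3 other arms. Points are the replicates and lines their means. The left arm of II lies above the right arm of II and below the left arms of III and IV in the first 2 panels, and its median scores, 261.9 and 353.9, are the lowest shown for each replicate.

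Peaks of the arm were weak and narrow beside those of the left arms of III and IV. The median score was 261.9 in replicate 1 and 353.9 in replicate 2, against 478.3 and 658.9 on the left arm of III and 455.3 and 583.2 on that of IV. Over all chromosomes the medians were 381.3 and 448.7. The right arm of II had 284.5 and 375.3, so the arms of II differed by less than the replicates did. The median width was 1814 bp in replicate 1 and 1899 bp in replicate 2, against 2435 and 2285 bp on III and 2194.5 and 2020 bp on IV. Peaks of the right arm of II were about as narrow, with 1840 and 1892.5 bp, and the medians over all chromosomes were 2067.5 and 2043 bp. In neither measure did the replicate values of II overlap those of III or IV, and these differences were not tested, since an exact sign-flip test over 2 replicates cannot go below p = 0.5. Replicate scores pile up at 3100. Of the peaks of replicate 1 in the arm, 21 of 271 or 7.75% had a score of 3100 or above, against 12.8% of its peaks on all chromosomes. In replicate 2 it was 26 of 283 or 9.19%, against 14.9%. In the whole-series list, 15 members or 1.26% scored 50 or more, against 2.54% of all peaks of that list.

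Most members were short. Their width had a median of 341.5 bp and quartiles of 205.25 and 698.75 bp, and the shortest, 146 bp, was shared by 23 of them. The 524 members under 300 bp made up 43.9% of the members and 12.6% of their bases. The 82 members over 2 kb made up 6.87% of the members and 37.8% of the bases. Scores ran from 1.3 to 124.36 with a median of 5.73, and wider members tended to score higher (Spearman's rho = 0.72 over the 1194 members, a description). The caller sets both values from the same reads.

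**Figure D3:**
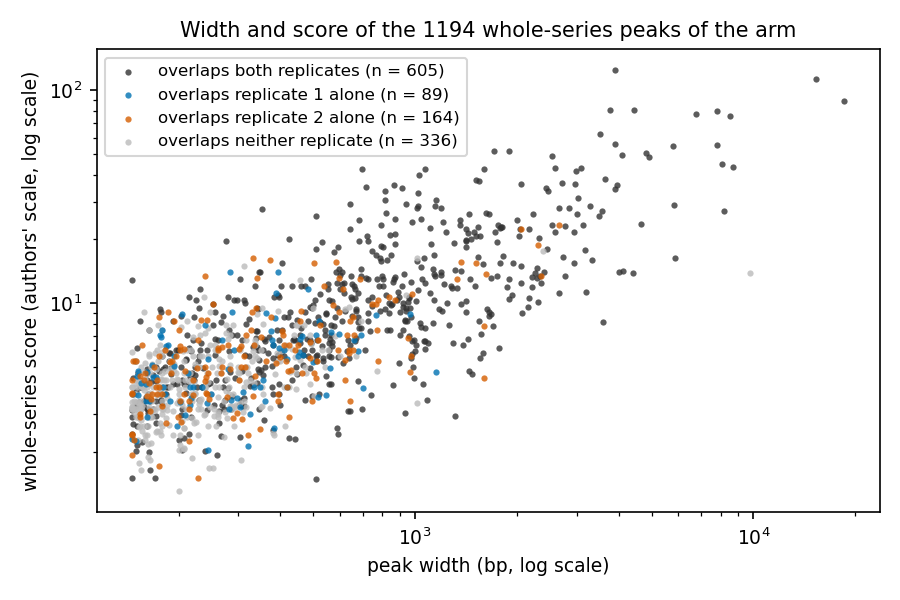
Width in bp and whole-series score of each of the 1194 members, both on log scales, coloured by the replicate lists whose peaks overlap the member. Members with a score of 50 or more are at least 1713 bp wide and overlap both replicates, while those that overlap neither crowd at the lower left, with median values of 218 bp and 4.04.

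A peak of both replicates, sharing at least 1 bp, lay on 605 of the 1194 members, or 50.7% (95% Wilson interval 47.8 to 53.5%), against 53.8% of the peaks of all chromosomes. Another 89 members, or 7.45%, overlapped replicate 1 alone, against 8.47% over all chromosomes. Replicate 2 alone accounted for 164 members, or 13.7%, against 10.7%. The remaining 336 members, or 28.1%, overlapped neither, against 27%. The shares of the arm thus lay near those of the series, with replicate 2 alone furthest above. By bases the members in both replicates weighed more. They held 642.7 kb or 76.2% of the members' bases, and members in neither held 97.4 kb or 11.5%.

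The median member in both replicates scored 8.64 and was 614 bp wide. Members of replicate 2 alone had medians of 5.32 and 313.5 bp, members of replicate 1 alone 4.76 and 285 bp, and members of neither 4.04 and 218 bp. The members were ranked by score into 4 groups of nearly equal number. Both replicates overlapped 27.4% of the lowest group, 34.2% of the second, 53.5% of the third and 87.6% of the highest. The median width of the groups rose as well, from 205 bp through 240 and 433 bp to 1066.5 bp. Score and width were not separated here. The highest group, with scores of 9.8 and above, had 7 of 298 members in neither. It held 60.8% of the members' bases.

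**Figure D4:**
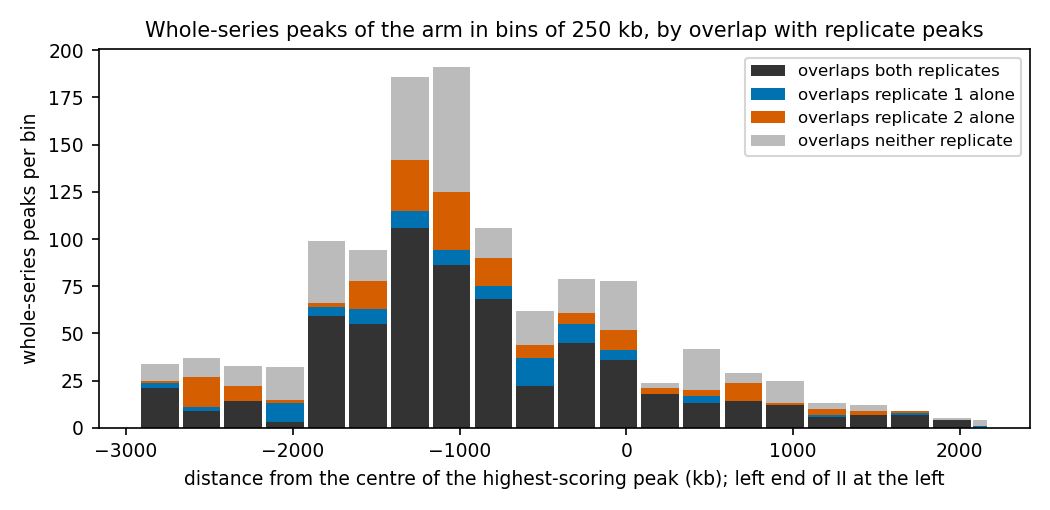
Number of whole-series peaks in bins of 250 kb along the arm, stacked by the replicate lists that overlap them. The horizontal axis gives the distance in kb from the centre of the highest-scoring member. The tallest bins, from 1.5 to 1.75 Mb and from 1.75 to 2 Mb, hold 186 and 191 members, of which 106 and 86 overlap both replicates.

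The overlap varied along the arm. From 1 to 1.25 Mb, 59 of 99 members lay in both replicates, and from 2 to 2.25 Mb 68 of 106 did. From 0.75 to 1 Mb it was 3 of 32, with 10 in replicate 1 alone and 17 in neither. Several of those 10 lay under a single replicate 1 peak, at 850909 to 856737. From 0.25 to 0.5 Mb it was 9 of 37, with 16 in replicate 2 alone. In the sparse outermost 1 Mb, 47 of 136 members or 34.6% lay in both replicates (95% Wilson interval 27.1 to 42.9%). It was 396 of 738 or 53.7% (50.1 to 57.2%) from 1 to 2.5 Mb and 162 of 320 or 50.6% (45.2 to 56.1%) in the innermost part. Members under the same replicate peak are not independent, so these intervals are too narrow to compare the stretches. In the replicate lists the shared part differed less between the stretches. It was 83.3%, 87.8% and 85.9% of the peaks of replicate 1 from the outermost stretch inward, and 79.4%, 79.9% and 80.0% of those of replicate 2. The counting intervals of these shares overlapped one another in each replicate.

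Of the 271 peaks of replicate 1 in the arm, a peak of replicate 2 overlapped 235 or 86.7% (95% Wilson interval 82.2 to 90.2%), against 89% over all chromosomes. Of the 283 peaks of replicate 2, a peak of replicate 1 overlapped 226 or 79.9% (74.8 to 84.1%), against 85.3%. At the level of bases the replicates shared 766.5 kb of the arm, which is 89.4% of what replicate 1 covered and 82.7% of what replicate 2 covered. Unshared peaks had a median score of 83.4 against 341.3 for shared ones in replicate 1, and 103.3 against 483.2 in replicate 2. Their median width was 1163 bp against 2067 bp in replicate 1 and 1244 bp against 2210 bp in replicate 2. A whole-series peak overlapped 270 of the 271 peaks of replicate 1, or 99.6%, against 99.7% over all chromosomes, and all 283 of replicate 2, against 99.5%. The exception in replicate 1, at 2102844 to 2104177, had a score of 53.04, near the lowest of its list.

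Where peaks met, their edges were compared. Over all 250 overlapping pairs the midpoints were a median of 152.25 bp apart, the starts 147 bp and the ends 149 bp, and in 95 pairs both edges lay within 200 bp. The scores had a Spearman's rho of 0.69 and the widths one of 0.66. Of the pairs, 183 were one-to-one, and in these the midpoints were a median of 91.5 bp apart, the starts 89 bp and the ends 104 bp, and in 94 pairs both edges lay within 200 bp. The scores had a Spearman's rho of 0.84 and the widths one of 0.90 over these pairs, which share the same 2 libraries. Replicate 2 had the higher score in 152 of the 250 pairs and replicate 1 in 80, with 18 equal. Over all chromosomes replicate 2 was higher in 56.0% of 3547 pairs and replicate 1 in 32.3%, against 60.8% and 32% in the arm.

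Among the bins of 100 kb the replicates differed most from 1.8 to 1.9 Mb, inside the dense stretch. There replicate 1 covered 34.1% of bases, replicate 2 covered 55.7% and the whole-series list covered 53.6%. The next largest difference fell from 0.6 to 0.7 Mb, with 3.93% in replicate 1 and 14.6% in replicate 2. From 1.6 to 1.7 Mb the values were 32.3%, 40.7% and 50.5%, so the whole-series list exceeded both replicates there. From 1.7 to 1.8 Mb the replicates differed by 0.358 percentage points. The strongest peaks that replicate 2 held alone lay at 1635887 to 1642190, with a score of 983.7, and at 1799190 to 1803622, with 948.9. The strongest that replicate 1 held alone lay in the outermost 1 Mb, at 850909 to 856737, with a score of 760.

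The highest-scoring member lies at II 2920916 to 2924805, with a whole-series score of 124.36 on only 3890 bp. Replicate 1 has a peak of 8098 bp there and replicate 2 one of 6569 bp, both with a score of 3100. The second, at 1120916 to 1136195, scored 113.2 over 15280 bp, and the peaks of the replicates matched it closely, from 1119661 to 1136507 and from 1119812 to 1136417. The third, at 2274661 to 2293203, scored 89.41 and is the widest member at 18543 bp. It meets peaks of 26592 bp in replicate 1 and 26320 bp in replicate 2, again at 3100. Those of rank 4 to 8 lie at 2453263 to 2457712 (80.88), 3052880 to 3056658 (80.79), 712246 to 720033 (80.27), 157141 to 163918 (77.72) and 1491510 to 1500025 (75.9). The last of these, 8516 bp wide, ranks 5 by width. The member at 2245032 to 2253732, 8701 bp wide with a score of 43.79, ranks 4.

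The 15 highest-scoring members found in both replicates were 1713 to 18543 bp wide and scored from 50.69 up. Of these, 8 lie between 1 and 2.5 Mb, 3 in the outermost 1 Mb and 4 further in. The same stretches held 61.8%, 11.4% and 26.8% of all members, so the 15 were not concentrated between 1 and 2.5 Mb beyond that. High scores were thus also found where peaks are sparse. The members at 4049848 to 4057658 (55.49) and 4291742 to 4297508 (54.59) carry 3100 in both replicates and stand in bins that were 5.94 ± 0.0093% and 5.18 ± 0.58% covered (SD, n = 2). In 11 of the 15 both replicates reached the score of 3100, so replicate scores do not rank them. The member of rank 4 was an exception, since it lies in a wide peak with a score below 3100 in each replicate, 22424 bp with 1232.5 in replicate 1 and 27448 bp with 574.1 in replicate 2, the widest replicate 2 peak of the arm. The member of rank 10, at 2193937 to 2197846 (56.16), had 3100 in replicate 1 and 3067.6 in replicate 2. The last 2 of the 15, at 1500809 to 1502708 and 1826448 to 1831263, had 1664.8 and 2501.8 in replicate 1 and 1560.7 and 2436.2 in replicate 2.

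Many members are pieces of wider domains. Gaps between neighbouring members had a median of 361 bp, and 670 of 1193 gaps, or 56.2%, were at most 500 bp. A replicate peak of the arm overlapped a median of 2 members in each replicate and up to 12 in replicate 1 and 11 in replicate 2. With gaps of up to 500 bp closed, the 1194 members formed 524 domains, of which 267 were single members. Domains of 10 kb or more numbered 14 and held 25.4% of the domains' bases. Of the 14, 12 lie between 1 and 2.5 Mb, which held 61.8% of all members and 66.7% of the bases they cover in the arm.

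The widest joined domain spans 1721337 to 1751884, 30.5 kb in 22 members whose highest score was 36.52. It was 99.4% covered in replicate 1 and 98.2% in replicate 2. The next spans 2266790 to 2293203, 26.4 kb in 4 members with a highest score of 89.41, and was 99.8% and 98.5% covered. The third, at 2461330 to 2483592, was 22.3 kb wide in 10 members and 95.7% and 99.6% covered.

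One wide domain was largely missing from the replicate lists. From 1636133 to 1657589, 12 members covered 91.1% of 21.5 kb, with scores of 3.46 to 17.6 and a median of 9.88. Replicate 1 had no peak in it, and replicate 2 had a single one, at 1635887 to 1642190, that covered 28.2% of it. The other 13 domains of 10 kb or more were at least 88.5% covered in replicate 1 and at least 92.5% in replicate 2. Replicate peaks stood close by on either side, ending at 1635460 in replicate 1 and beginning again at 1658072 in replicate 1 and at 1659073 in replicate 2. The 6 members in neither replicate include the member of rank 3 by width, at 1643118 to 1652853, 9736 bp with a score of 13.77, and the highest-scoring one found in neither, at 1653813 to 1656206 with 17.6. These 6 hold 14.8% of the bases of all members in neither replicate. It was not the only wide domain of low score, since 3 of the 14 had no member above a score of 20. The others that scored highest in neither replicate were small, at 2717857 to 2718868 (16.29), 3063633 to 3063945 (14.88) and 255335 to 255792 (12.85).

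**Figure D5:**
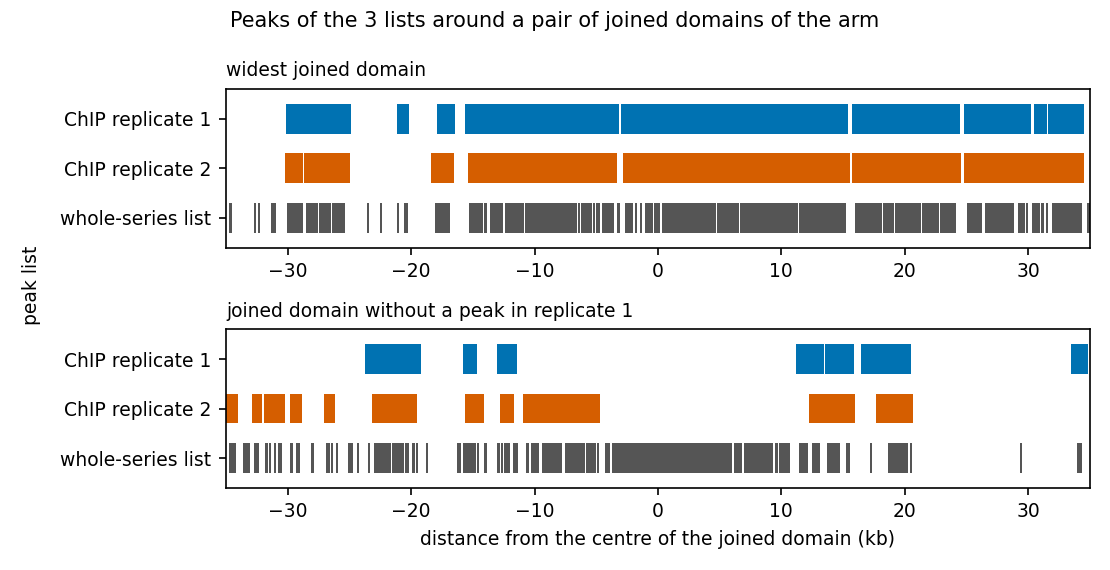
Peaks of the 3 lists as bars, with the distance from the centre of a joined domain in kb. The upper panel is centred on the widest joined domain of the arm. The lower panel is centred on the joined domain of 10 kb or more without a peak in replicate 1. In the upper panel all 3 lists cover the centre. In the lower panel whole-series peaks cover the centre, replicate 2 covers 28.2% of the domain and replicate 1 covers 0%.

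The replicate lists lacked narrow domains more often than wide ones. In the arm the narrowest peak of each replicate list was 806 bp wide, while members went down to 146 bp. The replicate lists also start at scores of 50.1 and 50.07, and the part these floors play was not tested. Under 1 kb, 199 of 313 domains, or 63.6%, were less than 10% covered in both replicates. The count was 13 of 100 from 1 to 2 kb, 1 of 64 from 2 to 5 kb and 0 of 33 from 5 to 10 kb. The median covered share in replicate 1 was 96.6% from 1 to 2 kb and 97.9% from 5 to 10 kb. In replicate 2 it was 100% in both classes.

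The inner end of the arm held long stretches without a peak in any list. The longest ran from 4582131 to 4856180, 274.05 kb, and the next from 4907596 to 5061179, 153.6 kb. Others of 127.9, 112.4 and 106.3 kb lay between 3.5 and 4.25 Mb. The limit of the arm fell in such sparse ground. The last members inside it, at 5075737 to 5075942 (5.97) and 5076988 to 5077265 (4.38), overlap neither replicate. The first peaks beyond it lie at 5144862 to 5145568 (6.99), in neither replicate, and at 5181409 to 5181729 (6.35), in both.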

How the data were processed

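The values are 3 deposited peak lists of ChIP samples. Reads were aligned with BWA to ce10, per the submitters' processing notes. Positions are WS220, per the file headers, and peaks were called with MACS for each replicate and with MACS v2 for the whole series, per the source column of the deposited files. Not given in the sources used here are the control, the thresholds, the MACS version of the replicate lists and how the whole-series list uses the replicates. The deposited score of each peak has no stated scale. Replicate 1 starts at 50.1, replicate 2 at 50.07 and the whole-series list at 1.3, so weaker sites are absent from each.

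Peaks were placed by midpoint, and covered bases were clipped at region limits. Chromosome length was the largest peak end in any list. Peaks overlap when they share at least 1 bp. Members were joined over gaps of up to 500 bp. Shares have 95% Wilson intervals, which treat peaks as independent and so cover counting error only. Ratios were tested with a two-sided exact sign-flip test over the 2 replicates, which cannot go below p = 0.5. The functions were tested on simulated peaks. The rule named the 15 highest-scoring members in both replicates (ranks 1 to 8 and exceptions are given), the 5 highest in neither, the 5 widest, the widest replicate peaks, the 3 widest domains and the 2 peaks on each side of the limit. The members, the lists and the tests were chosen with earlier results of these data known. Gene features and families were to be described only with an annotation of WS220 and are not analysed here. Depth is unknown. Tools were scipy 1.17.1, pandas 2.3.3, numpy 2.4.6 and matplotlib 3.10.9 under Python 3.11.15.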

Additional observations from a re-analysis of the deposited data

How the results depend on the processing

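Directions held under every alternative run: the log2 ratio of left over right arm, 0.51, lay between 0.43 and 0.84 (0.49 to 0.53 with either replicate left out), and that of outer over inner side, 1.21, between 1.17 and 1.70 (1.17 to 1.26). The share of members in both replicates, 50.7%, was 47.5% when an overlap needed 50% of the shorter peak, 59.0% with peaks widened by 250 bp and 43.1% among the better-scoring 50% of each list. With replicates left out, 58.1 to 64.4% overlapped the remaining one. Peaks per Mb, 54.4, were 23.5 among the better-scoring peaks, 234 in the whole-series list, 67.8 in the outer 25% of II and 53.2 to 55.6 with either replicate left out. The covered share, 17.5%, was 12.3% among the better-scoring peaks, 21.9% in the outer 25% and 16.8 to 18.2% with either replicate left out. The 5 most covered bins of 250 kb held 56.8% of covered bases, the whole-series list gave 58.3%, 12 bins of 100 kb gave 59.9%, and leaving out either replicate gave 56.76 to 56.83%. The 14 joined domains of 10 kb or more became 2 with no joining, 23 with gaps of 1000 bp and 8 among the better-scoring peaks, as fewer or longer joins are made. Spearman's rho of scores was 0.69 over all pairs and 0.84 over one-to-one pairs, and the cause was not tested. Leaving out pairs with the highest score of a list removed none, so pairs at 3100 or above were left out as a choice made after seeing the data, which gave 0.64. Added likewise, the better-scoring peaks set against whole lists gave 99.1% for replicate 1, 95.3% for replicate 2 and 76.2% for members in both. The overlap of replicates otherwise stayed within its counting interval, at 86.3 to 89.3% and 75.6 to 82.3%. No paired analysis was possible because peak lists of the equally numbered input samples were not used here. How far depth limits the number of weak peaks is unknown.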
